A study of Rattus norvegicus with 12 samples.

Results

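*Cyp2j4*, *Art1*, *Anxa10*, *Smim5*, *Spata46* and *Marcks* are 6 genes outside the sarcomere that were chosen by the size of their fall in L6 myotubes given GR24, a synthetic strigolactone. They are 6 of the 16581 genes with a named probe on the arrays, and of the 10741 genes with a probe that could be tested. L6 is a rat skeletal muscle line whose myoblasts fuse into myotubes. Myotubes at 6 days of differentiation, by the sample labels (the sources used here differ by 1 day), received 60 µM GR24, 60 µM pinosylvin, 60 µM resveratrol or DMSO alone for 24 h. Each of the 4 groups had 3 arrays of 1 colour, from separate experiments with the same batch of cells of 1 line, which limits how far the values reach beyond these cells.

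Each array carried 58717 spots besides controls. The scanner software marked 58.0% to 64.3% of them as well above background and 0 as saturated. Signals are the background-subtracted intensities of the scanner software. Levels are log2 of the signal relative to the 75th percentile of the array, which was a signal of 720 to 1038. Differences are log2 differences between group means with their SE, with n = 3 arrays per group unless fewer are named. Adjusted p-values come from limma's moderated test over 24279 probes with Benjamini-Hochberg adjustment and a threshold of 0.05. In RNA from whole cultures, fewer cells of a type and less RNA per cell cannot be told apart.

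The 6 genes belong to unrelated families. Cytochrome P450 enzymes of the 2J subfamily oxidise arachidonic acid to epoxides, lipid mediators that soluble epoxide hydrolase breaks down. *Art1* encodes an ADP-ribosyltransferase held at the surface of muscle cells by a lipid anchor, which modifies arginines of proteins such as integrin. *Marcks* encodes a protein that binds actin and the inner face of the plasma membrane and leaves the membrane when protein kinase C phosphorylates it or calmodulin binds it. *Anxa10* encodes an annexin, a family that binds membrane lipids in the presence of calcium, and most of its own calcium-binding sites are lost. *Smim5* encodes a small integral membrane protein, and *Spata46* is named for its link to sperm formation.

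The cultures carried the RNA of muscle cells. Of the 12 myotube markers listed, 11 had a named probe, and all 11 were well above background on each control array. Their summed level on the control arrays was 745, 810 and 701 times the 75th percentile, with *Myh3*, the embryonic myosin heavy chain, as the brightest. On the GR24 arrays the sum was 301, 288 and 285, and *Myod1* was not well above background on any of them. The sum was 822, 857 and 797 with pinosylvin and 609, 625 and 585 with resveratrol. *Myod1* was also not well above background on resveratrol replicate 2. The GR24 arrays were thus the lowest, the resveratrol arrays lay between them and the control arrays, and the pinosylvin arrays overlapped with the control arrays.

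Signals of *Cyp2j4* were 2842, 2118 and 2637 on the control arrays and 50.9, 53.1 and 50.1 on the GR24 arrays. They were 643, 636 and 700 with pinosylvin and 663, 573 and 788 with resveratrol. All 12 arrays were well above background, the control arrays were the highest, the GR24 arrays the lowest, and the stilbene arrays lay between them. The signals of the stilbenes overlapped, but in level each pinosylvin array lay slightly above each resveratrol array. The level was 1.48 ± 0.11 (SD, n = 3) in the control and -4.13 ± 0.17 (SD, n = 3) with GR24. The GR24 level was 48.5-fold lower than that of the control, or 2.06% of it. The size depended on the processing, since the log2 difference was -5.60 here, -4.46 with normexp background correction and -4.99 in the table of normalized values that was deposited.

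Signals of *Art1* were 1294, 899 and 1183 on the control arrays and 38.6, 19.6 and 23.6 on the GR24 arrays, of which 1 was well above background, replicate 1. They were 2054, 1570 and 1923 with pinosylvin and 881, 767 and 830.5 with resveratrol. The pinosylvin arrays were the highest, the control and resveratrol arrays lay closer together without overlap in level, and the GR24 arrays stood far below all others. The difference between GR24 and control was -5.40, from 0.30 ± 0.11 (SD, n = 3) to -5.10 ± 0.53 (SD, n = 3). Because 2 of these 3 GR24 arrays were not well above background, the GR24 mean is uncertain, and the difference was -3.40 with normexp and -4.10 in the deposited table.

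*Anxa10* had 2 probes. On the brighter one, signals were 10384, 7900 and 9056 in the control, 250, 219 and 238 with GR24, 9779, 8142 and 9871 with pinosylvin and 4135, 3365 and 4313 with resveratrol. The control and pinosylvin arrays were high, the resveratrol arrays lower, and the GR24 arrays by far the lowest, all of them well above background. The difference between GR24 and control was -5.26 on this probe and -4.96 on the other.

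Signals of *Smim5* were 518, 441 and 535 in the control, 111, 130 and 134 with pinosylvin and 160, 156 and 190 with resveratrol. On the GR24 arrays they were 23.7, 14.4 and 33.0, and none of the 3 was well above background. The order resembled that of *Cyp2j4*, with high control arrays, lower stilbene arrays and the lowest signals with GR24. With this background correction, *Smim5* was at least 20.8-fold lower with GR24 than in the control, or 16.0-fold by a stricter choice. Both bounds are explained with *Spata46* below, and other processing gave smaller falls. The measured GR24 mean of *Smim5* was -5.32.

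Signals of *Spata46* were 183, 150 and 184 in the control and 8.65, 7.86 and 7.17 with GR24, where no array was well above background. They were 260, 228 and 256 with pinosylvin and 205, 177 and 234 with resveratrol. Here the control arrays were not the highest, since in level each pinosylvin and resveratrol array lay above each control array. *Spata46* was at least 9.87-fold lower with GR24 than in the control. These bounds set the other group's mean against, on each GR24 array, the higher of the probe's own level and the lowest level of any probe well above background. When that lowest level was taken only from probes with every spot well above background, a stricter choice made after the data were seen, the bounds were at least 16.0-fold for *Smim5* and 5.72-fold for *Spata46*. They hold for this background correction only. With normexp background correction the difference was -2.42 for *Smim5* and -1.61 for *Spata46*. In the deposited table it was -3.06 for *Smim5* and -2.33 for *Spata46*. For each gene, both of these falls were smaller than either bound.

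*Marcks* had 2 probes as well. On the brighter one, signals were 7264, 6333 and 8186 in the control, 342, 303 and 356 with GR24, 6963, 6647 and 8926 with pinosylvin and 6907, 5499 and 6913 with resveratrol. The signals of the control and stilbene arrays overlapped, but in level each pinosylvin array lay above each resveratrol array. The GR24 arrays were well above background but far below all others. The difference between GR24 and control was -4.43 on this probe and -4.40 on the other.

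**Figure D1:**
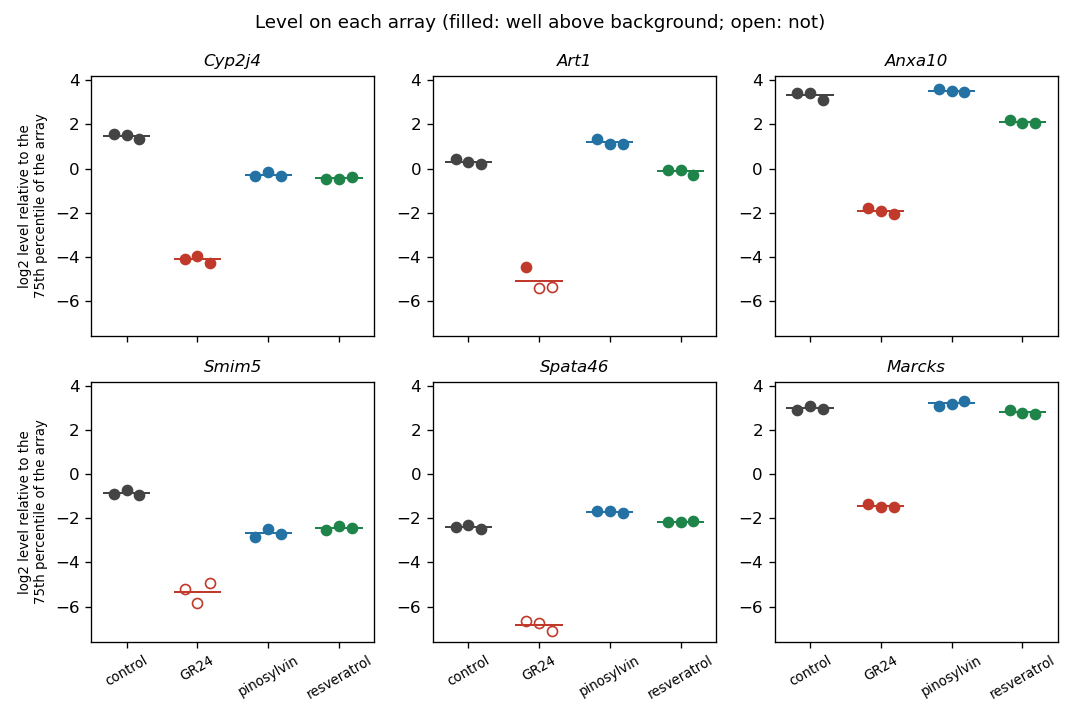
Level of each gene on its brighter probe, as log2 of the signal relative to the 75th percentile of the array (vertical axis), on the 3 arrays of each group (horizontal axis), with bars at the group means. Open points mark arrays that were not well above background: 2 GR24 arrays for *Art1* and all 3 for *Smim5* and *Spata46*.

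All 6 genes were well above background on every control, pinosylvin and resveratrol array, 3 were so on every GR24 array, and 2 on none. Among the 2869 named genes lower with GR24, *Cyp2j4*, *Anxa10* and *Marcks* held ranks 2, 4 and 10 by the fitted difference. The places of *Art1*, *Smim5* and *Spata46* beside them are not settled, because some or all of their GR24 signals were not well above background, and the other ranks can shift with them. The order of *Cyp2j4* and *Anxa10* also turned with the processing. Their differences were -4.46 and -4.92 with normexp, and -4.99 and -5.09 in the deposited table. The ranks follow from the selection, as does the absence of overlap between GR24 and control, and no test is given for them. Across all tested probes, 25.5% were lower and 31.5% were higher with GR24. *Myog*, the myogenic transcription factor myogenin, stood first at -5.83. *Stac3*, an adaptor of the muscle calcium channel, and *Itgb1bp2*, which encodes the integrin-binding protein melusin, lay between *Anxa10* and *Marcks* at -5.22 and -4.58. Just below *Marcks* came *Mybph* at -4.30 and *Acta2* at -4.26.

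The fall with GR24 raised the question of whether pinosylvin and resveratrol, stilbenes from plants that differ by 1 hydroxyl group, lowered the same genes. Each stilbene was compared with the control arrays that also entered the choice of the genes, so these comparisons are not fully separate from that choice. The difference between the stilbenes was taken from their own arrays, while its SE and adjusted p used the spread over all 12 arrays.

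Pinosylvin lowered 2 of the 6 genes, where 8.27% of all tested probes were lower and 8.28% were higher. *Cyp2j4* fell from 1.48 ± 0.11 (SD, n = 3) to -0.28 ± 0.09 (SD, n = 3), a difference of -1.75 (SE 0.095, adjusted p = 1.34e-06 by limma). *Smim5* fell by 1.81 on the log2 scale (SE 0.20, adjusted p = 0.000173 by limma). The pinosylvin level was 29.7% of that of the control for *Cyp2j4* and 28.4% for *Smim5*, and for both genes it stayed above the GR24 level on every array. *Spata46* and *Art1* were higher instead. *Spata46* rose by 0.70 (SE 0.11, adjusted p = 0.00178) and *Art1* by 0.90 (SE 0.21, adjusted p = 0.0156). The call for *Art1* was lost without pinosylvin replicate 1 (adjusted p = 0.0594), without control replicate 3 (adjusted p = 0.0526) and on slide 1 alone (adjusted p = 0.0880), with differences of 0.83, 0.85 and 0.88. The difference was 0.20 for *Anxa10* (95% interval -0.0098 to 0.42, adjusted p = 0.189) and was not called on either probe. For *Marcks* it was 0.22 (95% interval 0.029 to 0.42, adjusted p = 0.115), whereas the other probe gave 0.29 (adjusted p = 0.0357), so the probes fell on opposite sides of the threshold.

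With resveratrol, *Cyp2j4* was at -0.44 ± 0.06 (SD, n = 3), a difference from the control of -1.91 (SE 0.095). This fall was known when the genes were chosen and is given without a test. Of the 5 other genes, 2 were lower with resveratrol, where 8.99% of all tested probes were lower and 7.99% were higher. *Smim5* fell by 1.57 (SE 0.20, adjusted p = 0.000522). *Anxa10* fell by 1.21 (SE 0.097, adjusted p = 2.97e-05), to 43.2% of the control, and its other probe fell by 1.14 (adjusted p = 0.000268). *Art1* was not called, at -0.43 (95% interval -0.90 to 0.039, adjusted p = 0.210), although each resveratrol array lay below each control array. It was called with normexp background correction (-0.39, adjusted p = 0.0274), with only the arrays compared (adjusted p = 0.0489) and without GR24 replicate 1 (adjusted p = 0.0171). *Spata46* was not called, at 0.25 (95% interval -0.00035 to 0.50, adjusted p = 0.171), except without GR24 replicate 3 (adjusted p = 0.0414). *Marcks* had a difference of -0.18 (95% interval -0.37 to 0.018, adjusted p = 0.216) and was not called.

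At the same dose and time, 4 of 5 genes differed between resveratrol and pinosylvin, where 7.68% of all tested probes were lower and 6.85% were higher with resveratrol. All 4 were lower with resveratrol, the stilbene with the additional hydroxyl group. In the same comparison 8 of 11 myotube markers were lower and 0 higher with resveratrol (median -0.56), beside 8.13% lower and 8.26% higher over all named genes, and their part in these differences was not tested. *Anxa10* differed by -1.42 (SE 0.097, adjusted p = 2.32e-05), and by -1.24 on its other probe (adjusted p = 0.000206). On the brighter probe the level went from 3.53 ± 0.06 (SD, n = 3) with pinosylvin to 2.11 ± 0.06 (SD, n = 3) with resveratrol. For *Art1* the difference was -1.33 (SE 0.21, adjusted p = 0.00236). The differences of *Marcks*, at -0.40 (SE 0.087, adjusted p = 0.0128), and *Spata46*, at -0.46 (SE 0.11, adjusted p = 0.0219), were smaller and depended on the setting. *Marcks* lost its call without resveratrol replicate 3 (adjusted p = 0.0524), with no filter on dim probes (adjusted p = 0.0526) and on slide 1 alone (adjusted p = 0.108). *Spata46* lost it under 8 alternatives, all of them planned. In 3 of these every array was kept, with an adjusted p of up to 0.143 with quantile normalization. The others left out pinosylvin replicate 1 or 2 or any 1 resveratrol replicate (adjusted p = 0.0574 to 0.0750). *Smim5* did not differ past the threshold, at 0.25 (95% interval -0.20 to 0.70, adjusted p = 0.485). For *Cyp2j4*, given without a test, the difference was -0.16 (95% interval -0.37 to 0.053).

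**Figure D2:**
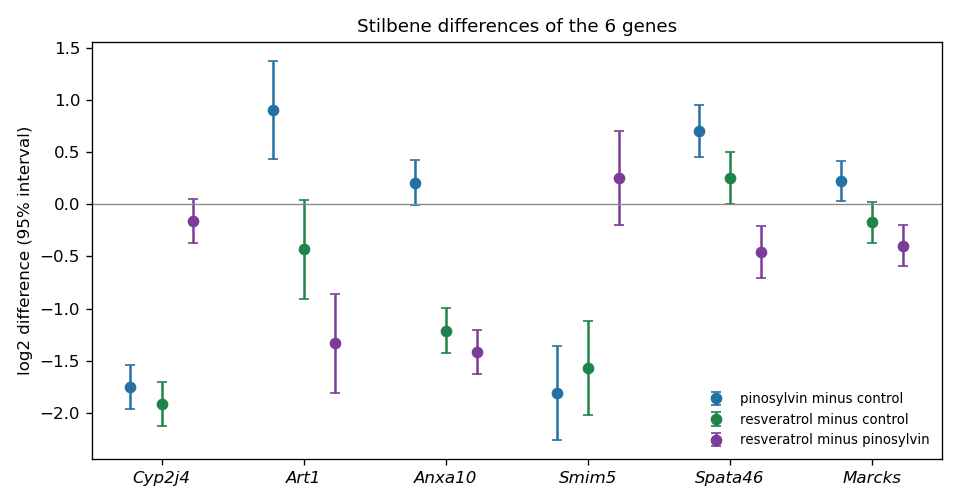
Log2 difference (vertical axis) of each gene (horizontal axis) for pinosylvin minus control, resveratrol minus control and resveratrol minus pinosylvin, with points at the differences of means over 3 arrays per group and bars for 95% intervals. *Cyp2j4* and *Smim5* lie below 0 against the control with both stilbenes, from -1.91 to -1.57, and *Anxa10* does so with resveratrol, at -1.21.

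Over all 10741 named genes tested, 26.7% were lower and 36.1% higher with GR24, 9.77% lower and 8.59% higher with pinosylvin, and 10.3% lower and 8.63% higher with resveratrol. Their median differences were 0.08, 0.04 and 0.02. The other genes among the 60 largest falls with GR24 were set beside the 6. Of these 54 genes, 23 were lower and 7 higher with pinosylvin, with a median difference of -0.33, and 40 were lower and 1 higher with resveratrol, with a median of -0.80. These comparisons share the control arrays with the one that ranked the genes.

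Each gene's level over the 12 arrays, relative to its control mean, was compared with that of the other named genes by the root mean square of the differences. This distance includes the GR24 arrays, on which the 6 genes were selected, and is a description. No distance is given where GR24 signals were not well above background, as for *Art1*, *Smim5* and *Spata46*. Among genes well above background on all 3 GR24 arrays, *Ube2c*, a ubiquitin-conjugating enzyme of mitosis, and *Cenpf*, a kinetochore protein, were nearest to *Cyp2j4*. Their distances, 0.90 and 0.93, were larger than those given below for *Anxa10* and *Marcks*. The differences from the control with pinosylvin were -1.96 for *Ube2c* and -1.82 for *Cenpf*, and with resveratrol -0.98 and -1.03. *Anxa10* lay nearest to *Itgb1bp2* (0.38) and *Stac3* (0.38). For *Marcks* the nearest were *Acta2* (0.20), the smooth muscle actin, and *Mybph* (0.21).

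Among the genes of arachidonic acid metabolism other than *Cyp2j4*, 13 of 18 with a named probe were tested. With GR24, 6 were lower and 4 higher, with a median difference of -0.08, beside 26.7% lower and 36.1% higher and a median of 0.08 over all named genes tested. One of the 6, *Ephx2*, was well above background on 1 of 3 control arrays and on no GR24 array, so its call says little. *Cyp2c11*, another cytochrome P450 epoxygenase, had the largest fall, at -3.01, and *Cyp2j3*, which was well above background on 2 of the 3 GR24 arrays, was also lower, while *Pla2g4a*, the phospholipase that frees arachidonic acid, rose by 1.35 and *Ptgs1*, a cyclooxygenase, by 1.11. With pinosylvin 2 were lower and 1 higher, where 9.77% of all named genes were lower, and both that fell were *Cyp2j3* (-1.32) and *Cyp2c11* (-1.09). The median was -0.09, beside 0.04 over all named genes. That median is the value of *Ephx2*, which was well above background on 1 control and 1 pinosylvin array, so it says little. With resveratrol 3 were lower and 1 higher (median 0.0013, beside 0.02 and 10.3% lower), and the prostacyclin synthase *Ptgis* (-1.28) joined *Cyp2c11* (-1.24) and *Cyp2j3* (-0.97). *Cyp2j3* is also the gene next to *Cyp2j4* on chromosome 5. Whether the probes of these related enzymes bind each other's transcripts was not tested.

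Of the ADP-ribosylation genes 9 of 13 were tested, and 6 were lower and 2 higher with GR24 (median -0.70), beside 26.7% and 36.1% of all named genes. *Art5*, another ADP-ribosyltransferase and the neighbour of *Art1* on chromosome 1, had a fitted difference of -3.46 and was not well above background on any GR24 array. *Adprhl1*, at -1.46, and *Itga7*, the integrin chain of muscle, at -1.05, were also lower, and *Parg*, which removes poly-ADP-ribose, was higher by 0.98. With pinosylvin 1 was lower and 1 higher (median 0.09), and with resveratrol 2 were lower and 3 higher (median -0.13), beside 9.77% lower and 8.59% higher with pinosylvin and 10.3% lower and 8.63% higher with resveratrol over all named genes. *Art5* was called with neither stilbene, at 0.12 (SE 0.32, adjusted p = 0.863) with pinosylvin and -0.55 (SE 0.32, adjusted p = 0.296) with resveratrol.

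Of the annexins and their S100 partners 12 of 13 were tested, with 5 lower and 2 higher with GR24 (median -0.19), beside 26.7% and 36.1% of all named genes. *Anxa3* (-2.30), *Anxa8* (-1.94) and *Anxa6* (-1.60) fell, and *Anxa7* rose by 1.12. Pinosylvin lowered 7 and raised 0 (median -0.32), and resveratrol lowered 8 and raised 0 (median -0.40), where 9.77% and 10.3% of all named genes were lower. *Anxa8* fell by 1.67 with pinosylvin and by 0.80 with resveratrol, an order opposite to that of *Anxa10*, and the stilbenes differed by 0.87 (adjusted p = 0.00044).

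In the list of the *Marcks* family, protein kinase C and calmodulin, 11 of 13 were tested, and 7 were lower and 2 higher with GR24 (median -0.44), beside 26.7% and 36.1% of all named genes. *Marcksl1*, the closest relative of *Marcks*, fell by 2.03, as did *Gap43*, another protein kinase C substrate at the membrane, while *Prkcd*, a protein kinase C, rose by 1.14. With pinosylvin 4 were lower and 1 higher (median -0.07), and with resveratrol 1 was lower and 1 higher (median -0.12), beside 9.77% and 10.3% lower and 8.59% and 8.63% higher over all named genes. *Marcksl1* was the gene that rose with pinosylvin, by 0.23 (adjusted p = 0.033), and it was not called with resveratrol, at -0.10 (adjusted p = 0.38).

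Genes that share only a name with *Smim5* or *Spata46* were counted as well. Of the other *Smim* genes 13 of 16 were tested, with 5 lower and 3 higher with GR24 (median -0.11), 0 lower and 1 higher with pinosylvin (median 0.05) and 1 lower and 2 higher with resveratrol (median 0.06). *Smim1* had the largest fall with GR24, at -1.82. Of the other *Spata* genes 11 of 22 were tested, with 4 lower and 3 higher with GR24 (median -0.50), 0 lower and 1 higher with pinosylvin (median -0.06) and 1 lower and 1 higher with resveratrol (median 0.20). The medians with GR24 and pinosylvin are the values of *Spata18*, which was tested through its 3 resveratrol arrays. It was well above background on 1 control, 0 GR24 and 1 pinosylvin array, so these medians say little. *Spata1* rose with GR24 by 2.36. Over all named genes 26.7% were lower and 36.1% higher with GR24, 9.77% and 8.59% with pinosylvin and 10.3% and 8.63% with resveratrol. Against the control, no stilbene count of either list exceeded 2 genes. Between the stilbenes, 2 *Smim* genes were lower and 1 higher with resveratrol, and 0 *Spata* genes were lower and 3 higher. Over all named genes 8.13% were lower and 8.26% higher in that comparison.

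The myotube markers were counted in the same way. Of the 11 myotube markers, 8 were lower with GR24 and 0 higher (median -2.44), beside 26.7% and 36.1% of all named genes, led by *Myog* (-5.83), *Acta1* (-3.88), the skeletal muscle actin, and *Actc1* (-2.90). With pinosylvin 0 were lower and 2 higher (median 0.21), beside 9.77% lower and 8.59% higher over all named genes. With resveratrol 6 were lower and 0 higher (median -0.32), beside 10.3% lower and 8.63% higher. Of 7 markers of undifferentiated myoblasts tested, 4 were lower and 1 higher with GR24 (median -0.35), and their summed level, led by *Vim*, was 268, 269 and 237 in the control and 135, 135 and 126 with GR24. With pinosylvin 3 were lower and 0 higher (median -0.18), with sums of 209, 218 and 199.6, and with resveratrol 2 were lower and 0 higher (median -0.03), with sums of 183, 184 and 172. The sums of all 3 treated groups thus lay below those of the control. Their part in the falls of the 6 genes was not tested.

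Markers of other cell types were also read. The 6 fibroblast markers were all well above background, with a summed level of 253, 258 and 241 in the control and 115, 116 and 105 with GR24, where 5 were lower and 1 higher, beside 26.7% and 36.1% of all named genes. With pinosylvin the sums were 216, 217 and 219.6, with 2 lower and 2 higher (9.77% and 8.59% of all named genes), and with resveratrol 209.5, 227 and 215, with 1 lower and 1 higher (10.3% and 8.63%). Muscle cells in culture also make collagens, so this list does not mark fibroblasts alone. Of the adipocyte markers *Cfd* alone was well above background on the control arrays, and *Adipoq*, *Lep* and *Cidec* were not. *Cfd* rose with pinosylvin by 0.41 (adjusted p = 0.0222 by limma) and was not called with GR24 (-0.05) or resveratrol (0.03). Between the stilbenes it was lower with resveratrol, at -0.39 (adjusted p = 0.0342 by limma). The endothelial markers summed to 0.26, 0.32 and 0.39 in the control and to 0.23, 0.23 and 0.34 with GR24, through *Cdh5* as the brightest gene. The macrophage markers summed to 0.17, 0.20 and 0.30 in the control and to 0.75, 0.79 and 0.80 with GR24, through *Cd68*, a lysosomal protein that other cells also make, while *Ptprc* stayed below that mark on each control and GR24 array. Their part in the falls of the 6 genes was not tested.

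Neighbouring genes were read in the order of the RefSeq table of the rat assembly GRCr8. Of the 24 genes next to the 6, on either side, 8 had a named probe and 6 a tested one. Besides *Cyp2j3* and *Art5*, *Nos1ap* beside *Spata46* was lower with GR24 (-1.66, SE 0.21, adjusted p = 5.7e-05), and *Nup98* near *Art1* was higher (0.42, SE 0.065, adjusted p = 0.000279). *Recql5* and *Sap30bp*, near *Smim5*, were not called with GR24, at 0.21 (SE 0.12, adjusted p = 0.175) and 0.10 (SE 0.13, adjusted p = 0.550). No neighbour of *Anxa10* or *Marcks* had a tested probe.

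Promoter sequences of RefSeq in the assembly GRCr8 were at hand for 5 of the 6 genes, not for *Smim5*. From 250 bases before to 50 after the start, both strands were searched for the E-box CANNTG, bound by helix-loop-helix factors such as myogenin, for its form CAGCTG, for the TATA box TATAAA, for the core of the antioxidant response element TGACNNNGC and for the MEF2 site. CAGCTG is itself an E-box, so each of its matches counts for both. Of 33465 promoters, 72.1% held an E-box, 15.1% CAGCTG, 14.2% a TATA box, 12.1% the antioxidant core and 3.29% a MEF2 site. *Cyp2j4*, *Art1* and *Marcks* held 2 E-boxes each, *Anxa10* and *Spata46* 0, and CAGCTG and the MEF2 site matched in 0 of the 5. *Anxa10* held 2 TATA boxes, and *Marcks* held 1 antioxidant core. The 250 bases before the start are shown for 3 genes that differed in their response to the stilbenes, with matches in capitals. They lie at chr5:116323043-116323292 on the minus strand for *Cyp2j4*, at chr1:165894353-165894602 on the plus strand for *Art1* and at chr16:32504775-32505024 on the plus strand for *Anxa10*. The second E-box of *Art1* spans the end of the stretch and is not marked. A match is a description of the letters and not of binding.
Cyp2j4: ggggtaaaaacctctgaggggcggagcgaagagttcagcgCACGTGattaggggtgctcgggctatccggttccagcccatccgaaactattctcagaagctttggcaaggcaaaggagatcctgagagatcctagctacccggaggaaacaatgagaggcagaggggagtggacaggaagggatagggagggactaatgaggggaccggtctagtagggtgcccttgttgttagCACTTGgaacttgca
Art1: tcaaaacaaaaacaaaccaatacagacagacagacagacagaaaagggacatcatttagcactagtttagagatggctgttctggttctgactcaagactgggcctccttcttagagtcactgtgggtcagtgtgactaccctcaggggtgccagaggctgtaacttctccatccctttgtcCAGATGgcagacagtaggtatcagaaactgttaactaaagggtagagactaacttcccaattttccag
Anxa10: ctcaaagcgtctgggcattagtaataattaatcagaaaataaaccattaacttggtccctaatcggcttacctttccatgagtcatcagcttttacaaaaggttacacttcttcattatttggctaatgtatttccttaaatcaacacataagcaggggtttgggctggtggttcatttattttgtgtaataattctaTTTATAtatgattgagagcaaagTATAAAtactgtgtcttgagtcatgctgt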

How the data were processed

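RNA of rat L6 myotubes from 4 groups was measured on 12 arrays. The authors deposited scanner output of Agilent Feature Extraction 12.0.0.7, in which the processed signal is a spot intensity after background subtraction on its own array, not yet normalized between arrays. The authors also deposited a table of normalized log2 values for 25848 probes, with background correction and normalization not given in the sources used here. It was an alternative, and its columns had medians of 9.21 to 9.24 and correlated at 0.9994 to 0.9997 with log2 median signals of their own arrays.

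Control spots were left out, outlier spots were set to missing, log2 values of the spots of a probe were averaged, and the 75th percentile over the probes of the array was subtracted. A probe counted as well above background where at least a share of 0.5 of its spots did, and it was tested where it did so on all 3 arrays of a group, which kept 24279 probes. A single model of 4 group means over all 12 arrays was fitted in limma 3.58.1 under R 4.3.3, with eBayes and Benjamini-Hochberg adjustment, tested on simulated data. RefSeq accessions named 21109 of 45598 probes (46.3%). The probe with the highest mean led for a gene.

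The genes named are the 6 members, their nearest profiles, ranks and neighbours, and the leading changes of the gene lists. A gene that this rule names is not reported here. The members and lists were chosen with earlier results of these data known.

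Alternatives were quantile normalization, normexp (offset 50), the deposited table, filters, the percentile over probes bright on all 12 arrays, blocks for replicate or slide, eBayes with trend and robust settings, outlier spots kept, only the arrays compared, other probes and each array left out. Only slide 1 or 2 and the stricter floor for bounds were added after the data were seen. Normexp used the median signal in place of the planned mean signal, which was not used here. Same-numbered arrays deviated together (r = 0.19 to 0.74 over probes, every pair above 0.1), which was taken as pairing by number. Replicates 1 and 2, on the same slide, also correlated across numbers (0.22 to 0.48), so on slide 1 pairing by number and the shared slide cannot be told apart. Nor can they on slide 2, which held only replicate 3 (r = 0.64 to 0.74).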

Additional observations from a re-analysis of the deposited data

How the results depend on the processing

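Apart from the settings named next, the alternatives gave 2 members lower with pinosylvin, 2 or 3 lower with resveratrol and 3 or 4 that differed between the stilbenes. With only probes above background on all 12 arrays, the count was 1 for members lower with pinosylvin, 1 for members lower with resveratrol and 2 for members that differ between the stilbenes, since only 3, 2 and 2 of them were tested there. With no filter on dim probes, 2 members differed between the stilbenes, and this filter also moved the median difference of all probes to 0.12 with GR24, 0.11 with pinosylvin and -0.13 with resveratrol. Over the fits that left out 1 array each, the count that differed between the stilbenes ranged from 2 (without resveratrol replicate 3) to 4. The cause was not tested.

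With the replicate block, the paired counts of members were 2 lower with pinosylvin, 2 lower with resveratrol and 4 different between the stilbenes, as without it. The paired fit called more probes: 3954 higher with pinosylvin in place of 2010, 3419 higher and 3350 lower with resveratrol in place of 1941 and 2182, and 2816 higher and 3507 lower with resveratrol than with pinosylvin in place of 1664 and 1864. The slide block gave 4031 higher and 3043 lower with pinosylvin, 3524 and 3345 with resveratrol, and 2879 and 3564 between the stilbenes. With no filter, 1026 were higher with pinosylvin, 1070 higher with resveratrol, and 903 higher and 1072 lower between the stilbenes. With only the arrays compared, 1083 were higher with pinosylvin and 1215 with resveratrol. With arrays left out, the lowest counts were 1236 and 1192 for these, and 1030 higher and 1086 lower between the stilbenes.

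Within slides 1 and 2, which held 2 arrays and 1 array per group, *Cyp2j4* differed by -1.80 and -1.67 with pinosylvin, *Smim5* by -1.85 and -1.75 with pinosylvin and -1.61 and -1.47 with resveratrol, and *Anxa10* by -1.29 and -1.05 with resveratrol. No difference of a member past the threshold changed sign under any alternative. The falls with GR24 were smaller with normexp and in the deposited table: -4.46 and -4.99 for *Cyp2j4*, -3.40 and -4.10 for *Art1*, -4.92 and -5.09 for *Anxa10*, -2.42 and -3.06 for *Smim5*, -1.61 and -2.33 for *Spata46* and -4.12 and -4.25 for *Marcks*. Signal over background limits the GR24 levels of *Art1*, *Smim5* and *Spata46*, and 3 arrays per group limit the precision.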
